A study of Mus musculus with 6 samples.

Results

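Fibroblasts of 18-month-old mice were compared with those of 12-month-old mice in single-cell libraries prepared from collecting lymphatics of the skin, the muscular vessels that drive lymph towards the nodes, and the tissue that came with them. A cell barcode was kept if it held 500 genes or more and no more than 10% of its UMIs (unique molecular identifiers, which count captured transcripts) were mitochondrial, and it was counted as a fibroblast when its UMIs of Col1a2, Dcn and Pdgfra came to 5 or more and it held no UMI of Ptprc (leukocytes) or Pecam1 (endothelium). This gave 5651 fibroblasts among 11762 kept barcodes of 4 libraries, out of 24488 kept barcodes in the 6 libraries of the series. All mice were C57BL/6, no transgene is named, and all were anaesthetised with ketamine and xylazine. The groups were 12 months (middle-aged) and 18 months (aged), each with 1 library labelled male and 1 labelled female, and 2 libraries of 6-week-old mice, 1 labelled male and 1 labelled female, are given only as values beside them. In all groups Evans Blue was injected into the inguinal lymph node to make the vessels visible, fat and connective tissue were trimmed away, and the vessels were digested with collagenase I, elastase, dispase and DNase I and freed of red cells. The 18-month-old mice came from the National Institute on Aging and no such source is named for the others, so source and age cannot be told apart. The labels do not give the number of mice pooled per library, and p-values measure only the spread between these sums.

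Fibroblasts build and remodel the collagen and elastic matrix around a vessel, and they also answer tissue signals. Type I interferon induces a set of antiviral genes in them, and interleukin-1 or TNF acting through the transcription factor NF-kB induces chemokines, cytokines and adhesion molecules. Adventitial fibroblasts, marked by Pi16 and Dpp4, line vessels and are regarded as a reserve population.

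The label was checked against 6 fibroblast genes that the rule did not use. Col1a1, Col3a1, Lum, Gsn and Serpinf1 had CPM (UMIs of a gene scaled to a common library total) at least 7.08 times those of the other kept cells in each of the 4 libraries. Pdgfrb, which pericytes also express, had a lowest ratio of 1.12. Fibroblasts numbered 3106 and 462 in the 12-month libraries labelled male and female, and 1644 and 439 in the 18-month male and female libraries. They were 48.8% (95% exact binomial interval 47.6% to 50.1%), 46.2% (43.1% to 49.4%), 55.1% (53.3% to 56.9%) and 30.9% (28.5% to 33.4%) of kept barcodes in that order, and all 4-value series below keep this order. These intervals cover counting error only, and the share moves with how much surrounding tissue was taken. Few cells lay near the threshold: 29, 1, 7 and 10 fibroblasts had 5 or 6 marker UMIs, and 46, 1, 3 and 11 cells that met the other conditions had 3 or 4.

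The libraries did not stand alike. Their sums held 10654372, 4725821, 7968545 and 3806699 UMIs, with median depths of 3238, 10305.5, 4795 and 5388 UMIs per fibroblast. Any pair of the 4 shared at most 7 kept barcodes. Xist, the RNA of the inactive X chromosome, was at 1404 and 0.212 CPM at 12 months against 0 and 869.8 CPM at 18 months, and the Y-linked Ddx3y was at 0 and 207 CPM at 12 months against 207 and 0 CPM at 18 months. The libraries labelled male and female at 12 months thus held the sex genes of the other label, while both 18-month libraries held those of their own label, so the 12-month libraries are named by their labels only. The 18-month female sum also held RNA of other cells. Its 4 casein genes, which mammary epithelium makes for milk, summed to 8272 CPM, against 89.5, 0 and 0 CPM in the others. The 8 epithelial markers summed to 2171 CPM there against 538, 2.12 and 2.13 CPM, and Acta2 of smooth muscle was at 320.0 CPM against 26.3, 20.7 and 1.51 CPM. Dropping every fibroblast with a UMI of any of 7 markers of other cell types, among them Lyz2, C1qa, Cdh5, Myh11, Epcam and Krt14, left 2777, 423, 1496 and 362 cells. It removed 44.9% of the UMIs of the 18-month female sum and 8.55% to 14.1% of the others, and the caseins then summed to 31.4 CPM in the 18-month female sum. In a sum, fewer expressing cells and less RNA per cell cannot be told apart. The reduced sums are called marker-free below, and their 18-month female value is given beside the genes whose level or order it moved most, and beside some others. Free RNA, which droplets take up from broken cells, was estimated from hemoglobin and immunoglobulin UMIs at 11.8%, 0.193%, 3.75% and 0.417% of the sums. For some genes below these shares would bring more than the whole level, so they are too high for those genes.

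The most alike libraries were of different age and label, and both held the Y-linked Ddx3y. Over 11692 genes the log CPM of the 12-month library labelled female correlated with that of the 18-month male library at r = 0.966 and with that of the 18-month female library at r = 0.829. The 12-month library labelled male correlated about equally with the 18-month female library (r = 0.924), the 18-month male library (r = 0.920) and the other 12-month library (r = 0.915). The 18-month pair gave r = 0.839. These are correlations across genes, which are not independent replicates. Of the genes tested, 68.5% ordered the 2 labelled sexes oppositely at 12 and 18 months and 31.5% ordered them alike. Sult1e1, an estrogen sulfotransferase, was at 0 and 637 CPM at 12 months against 431 and 0.525 CPM at 18 months. C7, a complement component, was at 1.13 and 259 CPM at 12 months against 314 and 3.68 CPM at 18 months. Serpine2, a protease inhibitor, was at 42.2 and 476 CPM at 12 months against 543 and 23.1 CPM at 18 months. In each case the 12-month library labelled female and the 18-month male library, which held Ddx3y, were high. The others, which held Xist, were low, so the ages overlapped. The 6-week sums labelled male and female held 126 and 0 CPM of Ddx3y. In them Sult1e1 was at 356 and 0.294 CPM, C7 at 147 and 2.80 CPM and Serpine2 at 251 and 22.7 CPM. These 3 genes were chosen after their values were seen. What lies behind this order was not tested.

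**Figure D1:**
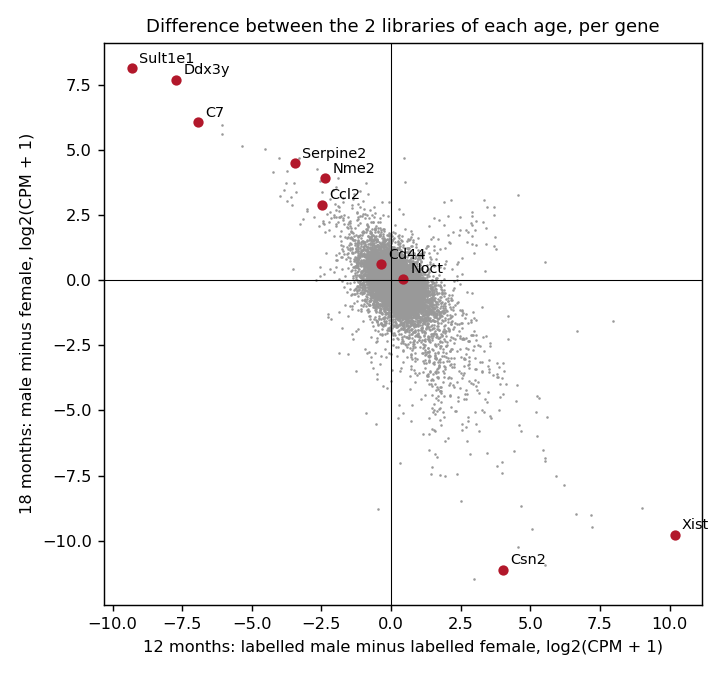
Each grey point is 1 of 11692 genes, with the difference in log2(CPM + 1) between the 2 libraries of 12 months (labelled male minus labelled female) on the x axis and the same at 18 months (male minus female) on the y axis. Red points are named genes; Sult1e1, Ddx3y and C7 lie at the upper left and Xist at the lower right, and the cloud runs from upper left to lower right (r = -0.64 across genes on TMM-normalised log CPM), while Cd44 and Noct lie near the centre.

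With 2 sums a side, edgeR's quasi-likelihood test called no gene between the ages: 0 of 11692 genes had a Benjamini-Hochberg adjusted p under 0.05 (0%; smallest adjusted p 0.969). At an unadjusted p under 0.05 there were 178 genes (1.52%), of which 118 were lower at 18 months (1.01%) and 60 higher (0.513%). DESeq2 on the same sums called 6 genes, all lower at 18 months, among them Noct, Cd44, Rsad2, Rps29 and Rpl38. In CPM, both 18-month sums lay above both 12-month sums for 2881 genes (24.6%) and below them for 985 genes (8.42%). On TMM-normalised CPM, which allow for the few genes that fill a library, the same counts were 1946 (16.6%) and 1652 (14.1%). CPM orders therefore leaned upwards in general, and TMM took most of that lean away, with the median log2 difference over all genes at 0.03 after TMM and 0.20 with library size alone. In the marker-free sums edgeR called 0 of 11146 genes (0%), with 339 at an unadjusted p under 0.05 (3.04%), and 3226 genes (28.9%) lay above and 993 (8.91%) below at 18 months.

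A fit with sex as a second term, in which the 2 labels of 12 months were exchanged to follow the sex genes, called 116 genes (0.992%), 55 higher (0.47%) and 61 lower (0.522%) at 18 months; with the labels as given it called 0. Of the 55 higher calls, 48 had a marker-free CPM in the 18-month female sum below 10% of their CPM there, and 24 were at 0 in the 12-month library labelled female and the 18-month male library. Csn2, a casein, was at 15.1 and 0 CPM at 12 months against 0 and 2215 CPM at 18 months and at 6.67 CPM in the marker-free 18-month female sum. Of the 61 lower calls, 38 did not overlap between the ages. On marker-free sums the same fit called 1 gene (0.00897%), the immunoglobulin light chain Igkc. In those sums Igkc was at 237 and 0.231 CPM at 12 months against 0 and 2.86 CPM at 18 months. In the full sums it was at 303 and 0.212 CPM at 12 months against 0.1255 and 2.36 CPM at 18 months, so that 1 library held nearly all of it. In what follows the log2 differences with their SE come from edgeR's age-only fit, in which no gene passed, and the adjusted p of the exchanged-label fit is given only to show which members passed that one. The exchanged-label fit has fewer residual degrees of freedom than the age-only fit. None of the genes given such an adjusted p below passed it on the marker-free sums.

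The 10 genes of smallest p were taken in each direction. Those lower at 18 months included Noct, Rras2, Cd44, Icam1, Rsad2, Rtp4, Emp1, Tpbg and Oasl2, with log2 differences from -2.74 to -1.23. Noct (nocturnin, a rhythmic enzyme that removes phosphate from NADPH; chr3:51224447-51251644, GRCm38) was at 107 and 78.3 CPM at 12 months against 27.6 and 26.3 CPM at 18 months, and at 22.4 CPM in the marker-free 18-month female sum. Both 18-month sums lay under both 12-month sums with a wide gap between the ages (log2 difference -1.94 ± 0.27, SE). The 6-week sums held 56.0 and 144 CPM, so Noct at 12 months was within the 6-week range. Emp1, an epithelial membrane protein, was at 484 and 525 CPM at 12 months against 239 and 188 CPM at 18 months and showed the same order, with 272 CPM in the marker-free 18-month female sum (log2 difference -1.40 ± 0.33, SE). Rras2, a Ras-family GTPase, was at 92.2 and 71.3 CPM at 12 months against 36.9 and 40.5 CPM at 18 months (log2 difference -1.24 ± 0.25, SE), and its marker-free 18-month female value was 62.9 CPM. Tpbg, a membrane glycoprotein that dampens Wnt signalling, was at 78.6 and 36.6 CPM at 12 months against 19.3 and 21.5 CPM at 18 months and 32.4 CPM marker-free (log2 difference -1.64 ± 0.39, SE). Each of these 4 genes was lower in both 18-month sums in the marker-free data too.

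**Figure D2:**
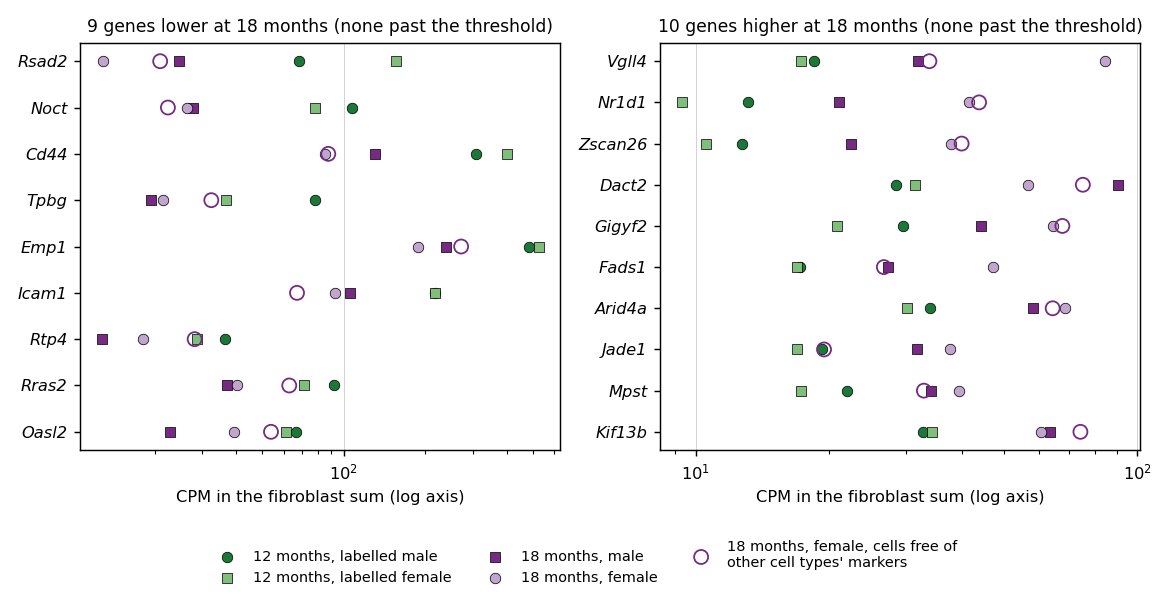
CPM on a log axis of 9 of the 10 genes of smallest p that were lower at 18 months and the 10 that were higher, none of which passed the threshold. Filled points are the 4 sums (green 12 months, purple 18 months; circles are the 12-month library labelled male and the 18-month female library, squares the other two), and open circles the marker-free 18-month female sum. Cd44, Noct and Rsad2 keep their distance between ages with the open circle, while Jade1 moves to the 12-month level.

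Of the lists tested, the interferon-induced genes had the most members lower in both 18-month sums. Of 38 members tested, none was called by the age-only fit, 22 lay lower in both 18-month sums and 0 higher (backgrounds 8.42% and 24.6%), and the median log2 difference was -0.84 against 0.03 over all genes tested. An unadjusted p under 0.05 was found for 10 members, all with lower values at 18 months. On TMM-normalised CPM 24 members were lower without overlap (over all genes 14.1%). In the marker-free sums 13 of 38 were lower without overlap and none was higher (over all genes 8.91% and 28.9%), and the median was -0.65. The list was chosen with earlier results of these data known, so this is a description. The list's summed level was 6571 and 6302 CPM at 12 months against 4354 and 4538 CPM at 18 months and was 6808, 6277, 4296 and 6234 CPM in the marker-free sums, where the 18-month female value lay close to the 12-month one labelled female.

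Rsad2 (viperin, which makes a chain-ending nucleotide against viruses; chr12:26442746-26456452, GRCm38) was at 68.6 and 155 CPM at 12 months against 24.6 and 12.9 CPM at 18 months, with 21.0 CPM in the marker-free 18-month female sum. The 12-month library labelled female was highest, and both 18-month sums were below both 12-month sums (log2 difference -2.74 ± 0.62, SE; exchanged-label adjusted p by edgeR = 0.00015). The 6-week sums, at 13.8 and 22.8 CPM, lay at the 18-month level, so the 12-month sums were the high ones. Ifit1, which binds foreign RNA ends (chr19:34640871-34650009), was at 79.0 and 367 CPM at 12 months against 60.7 and 44.9 CPM at 18 months, and here too the 12-month library labelled female alone was far above the rest (log2 difference -2.28 ± 0.81, SE). The marker-free values were 78.7, 342, 49.2 and 69.1 CPM, which left a narrow gap between the ages. Oasl2, an oligoadenylate synthetase-like protein, was at 66.5 and 61.2 CPM at 12 months against 22.8 and 39.1 CPM at 18 months, with 53.8 CPM marker-free (log2 difference -1.23 ± 0.31, SE). Rtp4, a receptor transporter protein that interferon induces, was at 36.5 and 28.6 CPM at 12 months against 12.8 and 18.1 CPM at 18 months (log2 difference -1.25 ± 0.29, SE), and its marker-free 18-month female value of 28.1 CPM came just under the 28.5 CPM of the marker-free 12-month library labelled female. Ifi203, a DNA sensor family member, was at 366 and 483 CPM at 12 months against 205 and 185 CPM at 18 months, with 285 CPM marker-free. Rsad2, Ifit1, Oasl2 and Ifi203 were the 4 members called lower by the exchanged-label fit.

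Some other members overlapped between the ages, in the full sums or only in the marker-free ones. Ifitm3, a membrane protein that blocks viral entry, was at 2011 and 1748 CPM at 12 months against 1430.0 and 1333 CPM at 18 months (log2 difference -0.61), but at 1864 CPM in the marker-free 18-month female sum, above the 1757 CPM of the marker-free 12-month library labelled female. Bst2 was at 379.8 and 111 CPM at 12 months against 106 and 284 CPM at 18 months and overlapped. B2m, the MHC class I light chain, was at 1572 and 1075 CPM at 12 months against 797 and 1035 CPM at 18 months (log2 difference -0.70 ± 0.30, SE), and its marker-free 18-month female value of 1156 CPM lay above the 1078 CPM of the marker-free 12-month library labelled female, so that the ages overlapped there. Of the 18 class I presentation genes 2 were lower without overlap and 0 higher (11.1% and 0%, against 8.42% and 24.6% of all genes), with a median of -0.20.

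**Figure D3:**
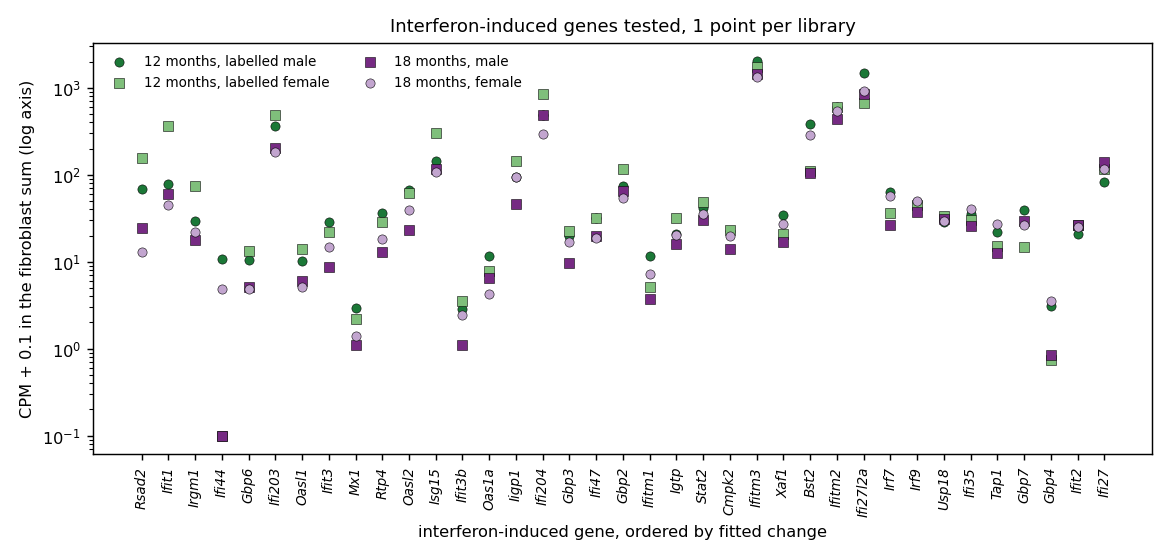
CPM + 0.1 on a log axis for 37 of the 38 interferon-induced genes tested, ordered from left by the fitted log2 difference between ages; each point is 1 sum, green for 12 months and purple for 18 months. Rsad2, Ifit1 and the next genes show both purple points under both green ones, while Ifi27 at the right does not; Ifi44 is at 0 in 2 sums.

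Interferon acts on such genes through the interferon-stimulated response element. Its core, searched here as GAAA followed after any 2 bases by GAAA (read as TTTC on the opposite strand, both strands searched), was found in the window from 250 bases before to 50 after the start of 1079 of 27025 genes (3.99%) in RefSeq (GRCm38.p6). Of the 28 tested interferon-induced genes with a window 16 held it (57.1%), and of the 18 that were lower without overlap 14 did (77.8%). The list was made of interferon-induced genes and the lower ones were picked from these same sums, so these shares are a description and no test. Whether interferon had a part in the difference between the ages was not tested. The windows of Rsad2 and Ifit1, members with large differences that hold it, are shown from 250 to 51 bases before the start, 5′ to 3′ on the gene's strand, with the matches in capitals. A match is no shown binding site.
Rsad2 promoter (chr12:26456503-26456702, minus strand): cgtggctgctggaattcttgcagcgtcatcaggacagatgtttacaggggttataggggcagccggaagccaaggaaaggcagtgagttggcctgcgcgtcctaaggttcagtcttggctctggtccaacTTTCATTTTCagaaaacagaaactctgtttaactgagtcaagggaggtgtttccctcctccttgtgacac
Ifit1 promoter (chr19:34640639-34640838, plus strand): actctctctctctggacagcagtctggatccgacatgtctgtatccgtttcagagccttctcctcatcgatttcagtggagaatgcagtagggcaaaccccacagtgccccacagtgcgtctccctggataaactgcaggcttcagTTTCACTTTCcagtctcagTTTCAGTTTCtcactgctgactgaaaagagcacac
The Rsad2 match begins 120 bases before the start, and the Ifit1 matches begin 104 and 85 bases before it. Rtp4 had no window in the table.

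Chemokine ligands were lower on the median, but their high values came from 1 library. Of 19 tested, 5 were lower without overlap, 1 higher, and the median log2 difference was -1.03 (over all genes 8.42% were lower, 24.6% were higher and the median was 0.03). Ccl2, which draws monocytes, was at 1470.0 and 8172 CPM at 12 months against 1808 and 239.8 CPM at 18 months, and the marker-free 18-month female sum held 386 CPM. The 12-month library labelled female was highest and the 18-month female lowest, with the other two between and overlapping (log2 difference -2.40 ± 1.27, SE; exchanged-label adjusted p by edgeR = 0.00019). Cxcl1, a neutrophil chemokine, was at 1674 and 5513 CPM at 12 months against 2939.7 and 331 CPM at 18 months, in the same order, with 505 CPM marker-free. Ccl7 was at 759 and 3053 CPM at 12 months against 1289 and 168 CPM at 18 months with 279 CPM marker-free, and Cxcl2 at 771 and 2870.0 CPM at 12 months against 1759 and 116 CPM at 18 months, again overlapping. Ccl8, another monocyte chemokine, did not overlap, at 108 and 71.5 CPM at 12 months against 62.0 and 32.8 CPM at 18 months, with 53.8 CPM marker-free (log2 difference -1.05 ± 0.43, SE). At its level in free RNA, the estimated shares would bring 129, 1.25, 48.3 and 1.81 CPM of Ccl8 to the sums. This is more than the whole of the first and most of the third. Free RNA cannot bring more than the whole, so the estimate is too high in the first. How much of Ccl8 was free RNA is therefore not known, and its order between the ages is not read as one of fibroblasts. With free RNA subtracted the log2 difference was -0.91 in the age-only fit and 0.92 with the exchanged term, and both values rest on that estimate. Cxcl12, which holds leukocytes and progenitors in place, was at 204 and 155 CPM at 12 months against 134 and 148 CPM at 18 months, but the marker-free 18-month female value of 221 CPM lay above both 12-month sums. Cxcl13, the B cell chemokine, was the member higher without overlap, at 92.2 and 100.5 CPM at 12 months against 128 and 168 CPM at 18 months, with 261 CPM marker-free (log2 difference 0.44).

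Of 35 cytokine, growth factor and adhesion genes tested, 9 were lower without overlap (25.7%, against 8.42% of all genes), none higher, and the median was -0.55. Icam1, the leukocyte adhesion molecule that NF-kB induces (chr9:21015985-21028817), was at 218 and 217 CPM at 12 months against 106 and 92.5 CPM at 18 months, and marker-free at 67.2 CPM in the 18-month female sum. The 12-month sums were nearly equal and both 18-month sums were well below them (log2 difference -1.30 ± 0.29, SE; exchanged-label adjusted p by edgeR = 0.032). Il6 was at 289 and 1052 CPM at 12 months against 271 and 131 CPM at 18 months, the 12-month library labelled female being far above the rest, so that the gap between the ages was the narrow one from 271 to 289 CPM (log2 difference -1.92 ± 0.79, SE), and the marker-free value was 195 CPM. Osmr, the oncostatin M receptor, was at 139 and 193 CPM at 12 months against 101 and 69.4 CPM at 18 months (log2 difference -1.12 ± 0.39, SE). Tslp, a cytokine that acts on dendritic cells, was at 28.7 and 22.4 CPM at 12 months against 16.1 and 8.41 CPM at 18 months and 12.9 CPM marker-free (log2 difference -1.19 ± 0.44, SE). Lif was at 48.3 and 50.4 CPM at 12 months against 39.0 and 15.2 CPM at 18 months and 10.0 CPM marker-free. Il1rl1, the receptor of interleukin-33, was at 34.7 and 36.8 CPM at 12 months against 13.3 and 0.788 CPM at 18 months, lowest in the 18-month female sum and at 0 CPM there marker-free. Il1r1, the interleukin-1 receptor, overlapped at 149.7 and 469 CPM at 12 months against 231 and 72.5 CPM at 18 months, with 111 CPM marker-free.

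The feedback genes that NF-kB switches on had 6 of 19 lower without overlap (31.6%, against 8.42% of all genes), none higher, all 19 with a negative log2 difference and a median of -0.82. Tnfaip3, which shuts NF-kB signalling off, was at 93.2 and 145 CPM at 12 months against 80.6 and 35.5 CPM at 18 months (log2 difference -1.19 ± 0.54, SE). Nfkb1, a subunit, was at 659.6 and 772 CPM at 12 months against 574 and 216 CPM at 18 months, with the 18-month female sum lowest and the male close to 12 months. Nfkbia, the inhibitor, differed little at 1060.0 and 1125 CPM at 12 months against 1021 and 992 CPM at 18 months (log2 difference -0.29). The counts of members lower without overlap were 9 and 6 in the marker-free sums of the 2 lists as well, of 32 and 19 tested. There 1 member of each list was higher without overlap (over all genes 8.91% were lower and 28.9% higher).

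Hyaluronan is a long sugar of the soft matrix that cells make at the membrane and bind through Cd44. Of 7 hyaluronan genes tested, 3 were lower without overlap (42.9%, against 8.42% of all genes) and none higher, with a median of -0.94. Cd44 (chr2:102811141-102901665) was at 309 and 401 CPM at 12 months against 130.4 and 85.1 CPM at 18 months and 87.7 CPM in the marker-free 18-month female sum, with a wide gap between the ages (log2 difference -1.88 ± 0.41, SE; exchanged-label adjusted p by edgeR = 0.0021). The 6-week sums held 139 and 293 CPM. Tnfaip6, which links proteins to hyaluronan, was at 1744 and 2445 CPM at 12 months against 1416 and 490.4 CPM at 18 months and 778 CPM marker-free (log2 difference -1.28 ± 0.62, SE). Ptx3, a pentraxin that joins Tnfaip6 in that matrix and was chosen here after its values were seen, was at 1333 and 2920.1 CPM at 12 months against 725 and 393 CPM at 18 months and 644 CPM marker-free (log2 difference -2.10 ± 0.60, SE). Has1, a synthase, was at 704 and 2057 CPM at 12 months against 793 and 425 CPM at 18 months and Has2 at 181 and 432 CPM at 12 months against 294 and 86.7 CPM at 18 months, both overlapping between ages, with 688 and 139 CPM marker-free. Hyal1, a hyaluronidase, was at 2.16 and 1.48 CPM at 12 months against 2.13 and 10.2 CPM at 18 months, also overlapping, with 4.76 CPM marker-free.

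**Figure D4:**
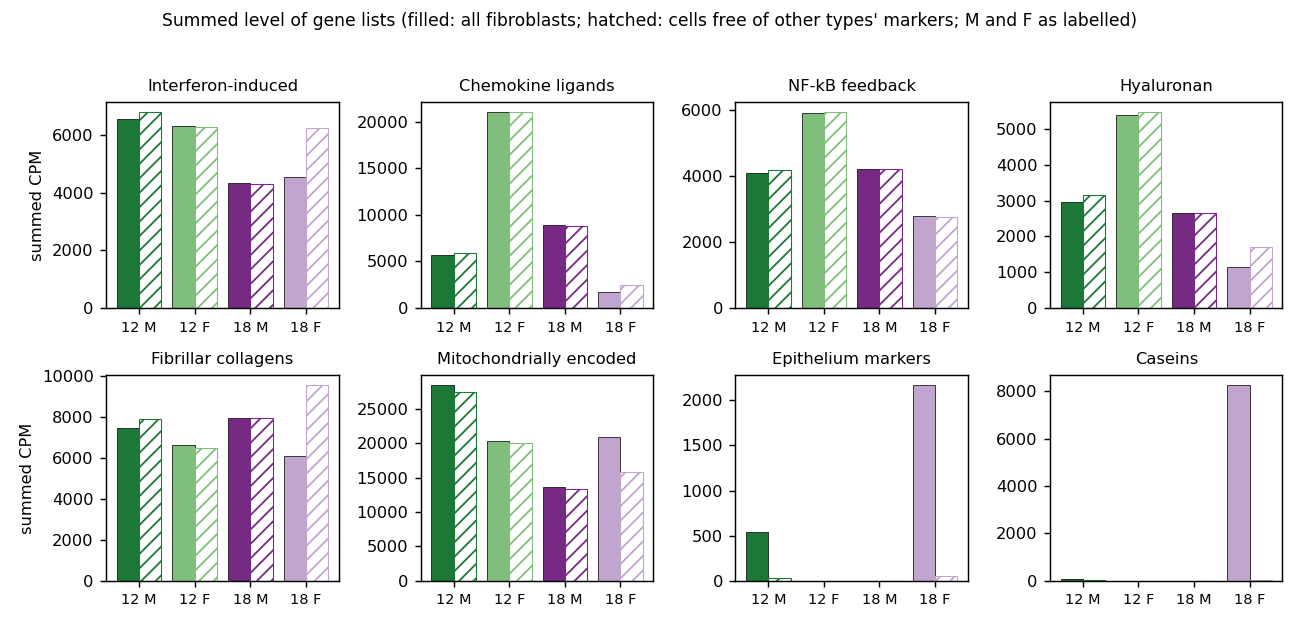
Summed CPM of 8 gene lists in the 4 sums (12 M, 12 F, 18 M, 18 F by label), filled for all fibroblasts and hatched for the marker-free sums; each bar is 1 sum and has no error. Interferon-induced genes are lower in both filled 18-month bars but not in the hatched 18 F bar, chemokines are highest in 12 F, and epithelial and casein genes stand in 18 F and are nearly gone in its hatched bar.

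Most collagen genes overlapped between these ages. Of 7 fibrillar collagen genes tested, 1 was lower without overlap and none higher (14.3% and 0%, against 8.42% and 24.6% of all genes), with a median of -0.20. Col1a1 was at 1219.5 and 1335 CPM at 12 months against 1317 and 1188 CPM at 18 months (log2 difference -0.20 ± 0.29, SE), and the marker-free 18-month female value was 1868 CPM, which turned the log2 difference to 0.10. Col3a1 was at 2609 and 1738 CPM at 12 months against 2576 and 1778 CPM at 18 months (log2 difference -0.14 ± 0.36, SE), with 2815 CPM marker-free. The 6-week sums held 12990.0 and 3485 CPM of Col1a1, above all 4 sums of older mice. Col27a1, a minor fibrillar chain, was the 1 lower without overlap, at 17.9 and 26.7 CPM at 12 months against 12.4 and 7.36 CPM at 18 months and 12.4 CPM marker-free (log2 difference -1.32 ± 0.46, SE). Among 17 other collagens 0 were lower and 1 higher without overlap (0% and 5.88%). Among 10 small leucine-rich proteoglycans 1 and 0 were (10% and 0%), and among 17 elastic fibre genes 1 and 0 (5.88% and 0%). Negative log2 differences were found for 6 fibrillar collagens, 13 other collagens, 8 proteoglycans and 15 elastic fibre genes. The marker-free medians were 0.07, -0.06, -0.06 and -0.06 in that order. Lox, which crosslinks collagen and elastin, was at 110.2 and 120.4 CPM at 12 months against 80.2 and 59.4 CPM at 18 months, with 83.8 CPM marker-free (log2 difference -0.88 ± 0.32, SE). In the 18-month female sum the fibrillar collagens summed to 6058 CPM in all fibroblasts and to 9550.0 CPM marker-free, the proteoglycans to 7883 and 12136 CPM, and the elastic fibre genes to 4157 and 6391 CPM. Matrix levels in that library therefore depended on the cells with other types' markers.

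Single genes of protease inhibition and of BMP signalling had larger differences. Timp1, a metalloproteinase inhibitor, was at 35.4 and 73.0 CPM at 12 months against 20.8 and 21.5 CPM at 18 months and 22.4 CPM marker-free (log2 difference -1.54 ± 0.46, SE; exchanged-label adjusted p by edgeR = 0.038). Bmp2, a BMP ligand, was also lower in both 18-month sums, at 123 and 171 CPM at 12 months against 103 and 68.6 CPM at 18 months and 108 CPM marker-free (log2 difference -0.95 ± 0.39, SE). Of 25 BMP and TGF-beta genes tested 6 were lower and 3 higher without overlap (24% and 12%, against 8.42% and 24.6% of all genes). Ackr3, a scavenging receptor for Cxcl12, was at 391 and 627 CPM at 12 months against 254 and 257 CPM at 18 months (log2 difference -1.18 ± 0.38, SE), but at 407 CPM marker-free, close to the 413 CPM of the marker-free 12-month library labelled male.

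Mitochondrially encoded genes had 4 of 13 lower without overlap (30.8%, against 8.42% of all genes), none higher, and all 13 had a negative log2 difference (median -0.56). On TMM-normalised CPM 10 were lower without overlap (over all genes 14.1%), and in the marker-free sums 8 were (over all genes 8.91%). Their summed level was 28489 and 20246 CPM at 12 months against 13590.0 and 20906 CPM at 18 months. These genes are abundant in free RNA, and at the estimated shares it would bring 30466, 676, 11584 and 338 CPM of them. This is more than the whole level of the 12-month library labelled male, so the estimate is too high there. mt-Co3, a cytochrome oxidase subunit, was at 7187 and 4171 CPM at 12 months against 2784 and 2922 CPM at 18 months (log2 difference -1.14 ± 0.32, SE), of which free RNA would bring 8211, 160, 3143 and 54.8 CPM, more than all of it in the first and the third. With free RNA subtracted its log2 difference was -0.81 in the age-only fit and -0.32 with the exchanged term. The estimate is too high for mt-Co3 in the first and the third sum, so how much of it was free RNA is not known. The levels of these genes are not read as those of fibroblasts alone. The rule capped mitochondrial UMIs at 10% of a cell, and median shares per fibroblast were 1.91%, 1.45%, 1.21% and 1.35%. The ribosomal protein genes Rps29 and Rpl38, noted because DESeq2 called them, were at 5800.4 and 6186 CPM at 12 months against 2644 and 3169 CPM at 18 months and at 3148 and 2789 CPM at 12 months against 1439.9 and 1636 CPM at 18 months (log2 difference -1.22 ± 0.27, SE; log2 difference -1.12 ± 0.26, SE); both have near-identical copies elsewhere in the genome, which makes their counts uncertain. Mt2, a metal-binding metallothionein, overlapped at 1986 and 7731 CPM at 12 months against 2360.2 and 550.4 CPM at 18 months. Of 23 heat shock chaperones 5 were higher and 0 lower without overlap (21.7% and 0%, against 24.6% and 8.42% of all genes), with a median of -0.16 after TMM. Ankrd1, a mechanical stress gene, was at 17.8 and 4.02 CPM at 12 months against 1.13 and 0.525 CPM at 18 months, and its 18-month female value rested on under 3 UMIs, the floor of 0.788 CPM there (log2 difference -3.73 ± 0.90, SE), as did its marker-free value.

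Higher at 18 months by smallest p were Arid4a, Zscan26, Nr1d1, Gigyf2, Vgll4, Dact2, Jade1, Fads1, Kif13b and Mpst, with log2 differences from 0.72 to 1.50. Arid4a, a chromatin protein, was at 33.9 and 30.05 CPM at 12 months against 58.0 and 68.6 CPM at 18 months (log2 difference 0.81 ± 0.24, SE). Zscan26, a zinc finger protein, was at 12.8 and 10.6 CPM at 12 months against 22.5 and 37.8 CPM at 18 months (log2 difference 1.18 ± 0.34, SE). Vgll4, which restrains the Hippo pathway's TEAD factors, was at 18.5 and 17.4 CPM at 12 months against 31.9 and 84.6 CPM at 18 months, but its marker-free 18-month female value was 33.8 CPM, near the male 31.9 CPM (log2 difference 1.50 ± 0.47, SE). Dact2, an adventitial marker that acts on Wnt signalling, was at 28.4 and 31.3 CPM at 12 months against 90.5 and 56.5 CPM at 18 months (log2 difference 1.15 ± 0.37, SE), and it was under 20 CPM at 6 weeks (18.6 and 15.0). Gigyf2, a repressor of translation, was at 29.5 and 20.9 CPM at 12 months against 44.2 and 64.4 CPM at 18 months (log2 difference 0.93 ± 0.29, SE). In the 18-month female sum Fads1, a fatty acid desaturase, was at 47.0 CPM in all fibroblasts and 26.7 CPM marker-free, and Jade1, a chromatin protein, at 37.6 and 19.5 CPM.

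Circadian and glucocorticoid-responsive genes lay on both sides. Nr1d1, the clock's repressor REV-ERB alpha, was at 13.1 and 9.31 CPM at 12 months against 21.1 and 41.5 CPM at 18 months (log2 difference 1.29 ± 0.40, SE). Dbp and Per3, output and core genes, were at 14.6 and 9.31 CPM at 12 months against 18.6 and 27.3 CPM at 18 months and 17.2 and 9.73 CPM at 12 months against 25.5 and 23.9 CPM at 18 months. Cry1 was at 36.0 and 26.2 CPM at 12 months against 23.8 and 15.0 CPM at 18 months and Arntl at 56.9 and 60.3 CPM at 12 months against 44.4 and 18.4 CPM at 18 months, lower. Of 21 tested, 6 were higher and 3 lower without overlap, which is 28.6% and 14.3% against 24.6% and 8.42% of all genes. The labels used here give no hour of tissue collection, so its part in this was not tested.

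Senescence genes gave no shared direction. Of 26 CDK inhibitor, p53 target and senescence genes tested 5 were higher and 3 lower without overlap (19.2% and 11.5%, against 24.6% and 8.42% of all genes), with a median of -0.06. Cdkn1a (p21) was at 469.9 and 468 CPM at 12 months against 550.4 and 265 CPM at 18 months, overlapping (log2 difference -0.35 ± 0.46, SE). Cdkn2a (p16), a marker of aged tissue, was at 2.25 and 1.06 CPM at 12 months against 0.376 and 2.36 CPM at 18 months, which is 24, 5, 3 and 9 UMIs, and marker-free it was at 0 CPM in the 18-month female sum. Cdkn1b (p27) was at 37.3 and 27.9 CPM at 12 months against 59.0 and 54.9 CPM at 18 months (log2 difference 0.65 ± 0.26, SE) and Btg2 at 173 and 111 CPM at 12 months against 225 and 389.6 CPM at 18 months, both higher.

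Markers of adventitial fibroblasts gave no shared direction in the full sums. Pi16 was at 656 and 999.8 CPM at 12 months against 1056 and 834 CPM at 18 months, overlapping (log2 difference 0.01 ± 0.39, SE), with 1332 CPM marker-free, where both 18-month sums lay above both 12-month sums. Of 14 adventitial markers 4 were higher and 2 lower without overlap (28.6% and 14.3%, against 24.6% and 8.42% of all genes), and in the marker-free sums 8 were higher and 1 lower (over all genes 28.9% and 8.91%). Among the 12 interstitial and preadipocyte markers, none was higher and 1 lower without overlap (Icam1), which is 0% and 8.33%. However, 10 of them had a negative log2 difference. Their median was -0.58, against 0.03 over all genes, and -0.37 in the marker-free sums. Col15a1 was at 68.1 and 33.4 CPM at 12 months against 47.4 and 24.4 CPM at 18 months, with 37.6 CPM marker-free. Fcer1g and Tyrobp, macrophage genes, were at 18.8 and 3.81 CPM at 12 months against 11.9 and 2.89 CPM at 18 months and 15.0 and 5.71 CPM at 12 months against 10.0 and 3.68 CPM at 18 months. The 12 macrophage markers summed to 320.3 and 36.0 CPM at 12 months against 214 and 82.7 CPM at 18 months. Traces of macrophage RNA were thus present in all 4 sums, most in the 12-month library labelled male and the 18-month male library. In the 18-month female library Fcer1g and Tyrobp were below, but the summed markers above, those of the 12-month library labelled female. The part of these traces in the values above was not tested.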

How the data were processed

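Per the labels, vessels were dissociated and captured with a 10x 3′ kit, v2 chemistry; each library lists 6794880 barcodes, the number of a later kit's list. Raw UMI counts of every gene and barcode were deposited as whole-number matrices before cell calling, per the file headers. Per the submitters' processing notes the authors used Cell Ranger 3.0.2 and mm10, and Seurat (annotation not used here). IDs sharing a symbol (71 of 31053) were summed, leaving 31017 symbols.

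Members, lists and tests were chosen with earlier results of these data known. Counts of kept fibroblasts were summed per library and fitted with edgeR 4.0.16 (limma 3.58.1, R 4.3.3). Genes passed filterByExpr, libraries were scaled by TMM, and age was the only term of the quasi-likelihood test, adjusted by Benjamini-Hochberg over 11692 genes, threshold 0.05, residual degrees of freedom 2. DESeq2 1.42.0 was an alternative. The code was tested on simulated data. Gene positions are GENCODE M21 (GRCm38). Barcodes of doublets were kept in the main sums; Scrublet (scanpy 1.11.5, 6% expected) marked 0.100% to 2.77% of kept barcodes and its removal was an alternative. Free RNA was estimated at 0.193% to 11.8% of UMIs. Named genes were up to 12 calls a direction by fold, or, with fewer than 3 calls, the 10 of smallest p at 30 CPM or more without overlap (no hemoglobin, immunoglobulin, mitochondrial, ribosomal protein, predicted or sex genes), up to 3 members per list by p at 10 CPM or more, and fixed genes. Results of a few genes that met these rules are not reported here. Other tools were Python 3.11.15, numpy 2.4.6, scipy 1.17.1, pandas 2.3.3, anndata 0.12.19 and matplotlib 3.10.9.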

Additional observations from a re-analysis of the deposited data

Results flagged for a closer look

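Nme2, a nucleoside diphosphate kinase fixed among the genes to report, moved one way in the pair of libraries labelled male and the other way in the pair labelled female. It was at 27.4 and 146 CPM at 12 months against 161 and 9.72 CPM at 18 months. Labelled male gave a log2 difference (18 minus 12 months) of 2.51 and labelled female one of -3.78. The difference between the pairs was not tested. The 12-month labels went against the sex genes, so each labelled pair set a library with Xist against one with Ddx3y. The libraries with Ddx3y were at 146 CPM at 12 months and 161 CPM at 18 months. Those with Xist were at 27.4 and 9.72 CPM. With the exchanged sex term the log2 difference between the ages was -0.75 ± 0.35 (SE). In the marker-free sums the values were 27.0, 151, 161 and 7.15 CPM, in the same order of libraries.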

How the results depend on the processing

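The count of genes called between the ages was 0 in the main fit, with the labelled sex term, with library size alone, with RLE factors, with at least 10 CPM in 2 sums, with all 6 libraries, and with each other choice of cells taken alone. It was 6 with DESeq2, 67 without the filter on low counts (47 higher, 20 lower), and 116 with the sex term whose 12-month labels were exchanged; leaving out each library in turn gave 0 to 0, a lone sum then being taken to vary like the other age. Settings added after the data were seen gave 11 with DESeq2 on marker-free sums, all lower (Noct, Cd44, Icam1, Rsad2, Ptx3, Emp1, Cxcl5, Sdc4, Tgm2, Rps29 and Rpl38), and, with the exchanged sex term, 56 at 10 or more marker UMIs, 1 on marker-free sums, 50 at 5% or less mitochondrial UMIs, 158 at 1000 or more genes, 26 without Scrublet calls, 55 in cells with and 1 in cells without a Pi16 or Dpp4 UMI, 0 after thinning each cell to 1500 UMIs, 0 after free RNA was subtracted and 0 with all 6 libraries. The cause of these differences was not tested.

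Of 56 genes followed through 32 alternatives, 50 kept the sign of their log2 difference under every one. The 6 others were Ccl8, which did not overlap in the main sums, and Col1a1, Col3a1, Pi16, Nme2 and Cdkn1a, whose ages overlapped. Many of the genes followed were named for a small p or a lack of overlap in these same sums. A kept sign was therefore likely beforehand, and unselected genes were not followed. Ccl8 (main -1.05) was at 0.92 with free RNA subtracted and the exchanged term. Col1a1 (main -0.20) was at 0.019 thinned, 0.10 marker-free, 0.083 marker-free with DESeq2, and with the exchanged term 0.021 thinned and 0.091 marker-free. Col3a1 (main -0.14) was at 0.0045 with library size alone, 0.034 thinned, 0.10 marker-free, 0.091 marker-free with DESeq2, and with the exchanged term 0.048 thinned and 0.14 marker-free; leaving out a library gave -0.57 to 0.16. Pi16 (main 0.01) was at -0.016 with DESeq2 and with RLE factors, -0.0050 without the filter, -0.019 at 5% mitochondrial UMIs, -0.017 at 1000 genes, -0.0093 with free RNA subtracted, -0.019 in cells with a Pi16 or Dpp4 UMI and -0.018 in these with the exchanged term; leaving out a library gave -0.33 to 0.44. Nme2 (main -0.17) was at 0.26 thinned, and leaving out a library gave -3.50 to 1.62; Cdkn1a (main -0.35) gave -1.12 to 0.13.

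No paired analysis was possible because the labels give no replicate numbers; the fits blocked by sex, labelled or exchanged, are the 2 given above with 0 and 116 genes called. With 2 sums a side, only genes with little spread can pass. The smallest sum held 3806699 UMIs, so that 3 UMIs there stand for 0.788 CPM.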

Other observations

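Further lists held values that the comparison above did not describe. Of 30 AP-1 and immediate early genes, which tissue digestion also induces, 6 were higher and 4 lower without overlap (20% and 13.3%, against 24.6% and 8.42% of all genes). After TMM 21 of the 30 had a negative log2 difference, with a median of -0.21. Jun was at 922 and 492 CPM at 12 months against 942 and 1885 CPM at 18 months, Ier2 at 218 and 216 CPM at 12 months against 352 and 456 CPM at 18 months and Atf3 at 598 and 392 CPM at 12 months against 836 and 823 CPM at 18 months, all with both 18-month sums above both 12-month sums, and none with an unadjusted edgeR p under 0.05. Marker-free, Ier2 was at 245 CPM in the 18-month female sum. Btg1 was among the lower members, at 313 and 332 CPM at 12 months against 235 and 207 CPM at 18 months. Of 28 actin and mechanical response genes 7 were lower and 1 higher without overlap (25% and 3.57%, against 8.42% and 24.6% of all genes). Among the lower ones were Tagln2 at 287 and 297 CPM at 12 months against 214 and 145 CPM at 18 months and Lmna, the nuclear lamin, at 412 and 391 CPM at 12 months against 272 and 319 CPM at 18 months.

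Of 22 glycolytic and hypoxia genes 5 were lower and 2 higher without overlap (22.7% and 9.09%, against 8.42% and 24.6% of all genes). Hk2, a hexokinase, was at 194 and 809 CPM at 12 months against 160.0 and 129 CPM at 18 months, its 12-month library labelled female alone being high. Adm, adrenomedullin, was at 168 and 103 CPM at 12 months against 89.0 and 68.3 CPM at 18 months (log2 difference -0.93 ± 0.35, SE by edgeR), and at 90.5 CPM in the marker-free 18-month female sum. Pltp, which carries phospholipids between lipoproteins, was at 90.4 and 103 CPM at 12 months against 53.8 and 44.9 CPM at 18 months (log2 difference -1.13 ± 0.29, SE by edgeR), and Plin2, which coats lipid droplets, at 78.1 and 23.9 CPM at 12 months against 95.4 and 261 CPM at 18 months but at 53.4 CPM marker-free in the 18-month female sum. Of 25 nucleolar and ribosome synthesis genes 24 had a negative log2 difference, with a median of -0.51. Without overlap 2 were lower and 0 higher (8% and 0%, against 8.42% and 24.6% of all genes), and 6 were lower in the marker-free sums (over all genes 8.91%). Wnt5a, a Wnt ligand, was at 25.9 and 26.7 CPM at 12 months against 47.8 and 35.7 CPM at 18 months (log2 difference 0.51 ± 0.31, SE by edgeR), higher in both 18-month sums.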
